A study of Homo sapiens with 8 samples.

Results

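The genes described here build and run the membrane traffic between the endoplasmic reticulum and the Golgi apparatus: the COPII and COPI vesicle coats, the ARF GTPases, the receptors that sort cargo, the golgin tethers and the SNARE fusion proteins. They are a named list of 40 genes, and 37 of them had at least 1 probe set that the platform annotation gives to that gene alone, out of 19775 genes with such a probe set. KDELR2 and USO1 were not analysed here, and neither was TMED7, whose probe sets also carry the name of a readthrough transcript. All 37 also passed the filter on dim genes that left 12093 genes to test. RNA came from ACHN, CAKI2, A498 and CAKI1, established human renal carcinoma lines that the submitters describe as clear cell lines, grown in medium with serum. Each line was exposed for 24 h to 75 nM A939572, which blocks the fatty acid desaturase SCD1, or to its solvent DMSO, with 1 array for either, so that 4 treated arrays stand against 4 controls paired by line. Nothing in the labels gives separate cultures within a line, and the 4 lines serve as the replicates.

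Secretory and membrane proteins leave the endoplasmic reticulum in vesicles coated with COPII. The GTPase SAR1 starts the coat, SEC23 and SEC24 form its inner layer and SEC24 picks the cargo, and SEC13 and SEC31 form the outer cage. COPI-coated vesicles, recruited by ARF GTPases, carry escaped residents and recycling receptors back, while golgins tether incoming vesicles and SNAREs fuse them with the Golgi. The genes for this machinery are known targets of the unfolded protein response, through ATF6 and XBP1, and of related factors that answer to secretory load.

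The promoters of these genes were searched for motifs of those factors, since most members moved together, as described further on. RefSeq windows on GRCh38.p14, from 250 bases before to 50 after a start site, were found for 35 of the 40 members, with 49 windows in all. The unfolded protein response element TGACGTGG lay in a window of 10 of these members (28.6%), against 1.23% of the 9884 genes tested that had a window and 0.927% of all 27305 genes in the table. The Golgi stress motif ACGTGGC, named for a response to Golgi overload, lay in 16 members (45.7%), against 5.75% of the tested genes. Both strands were searched, a gene counted once whatever its number of windows, which reached 4 for a member, and the 2 motifs can share letters, as they did in 7 members. The longer stress elements ERSE and ERSE-II and the cyclic AMP motif TGACGTCA had 0 matches in the 35 members, against 0.142%, 0.142% and 3.69% of the tested genes. At shares this low a list of 35 genes holds few matches or none, so 0 does not set the members apart. A match is a run of letters in a window and not a measured binding site. The 7 members below carry TGACGTGG wholly upstream of a start site, and they are shown because they include genes that rose with the drug and genes that did not pass the test. Each stretch runs 5′ to 3′ on the gene's own strand, with the match in capitals. It reads CCACGTCA where it lies on the opposite strand.
SEC24A, chr5:134648556-134648663, plus strand: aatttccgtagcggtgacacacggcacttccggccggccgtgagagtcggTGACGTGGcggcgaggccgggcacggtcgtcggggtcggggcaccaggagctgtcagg
GOLGA5, chr14:92794076-92794183, plus strand: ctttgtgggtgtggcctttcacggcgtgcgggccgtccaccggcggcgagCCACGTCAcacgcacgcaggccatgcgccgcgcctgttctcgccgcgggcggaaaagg
ARF1, chr1:228082642-228082707, plus strand: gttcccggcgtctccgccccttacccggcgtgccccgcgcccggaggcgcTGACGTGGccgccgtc
COPB1, chr11:14499812-14499909, minus strand: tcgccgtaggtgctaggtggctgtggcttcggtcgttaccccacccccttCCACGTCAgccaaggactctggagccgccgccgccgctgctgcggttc
COPB2, chr3:139389786-139389893, minus strand: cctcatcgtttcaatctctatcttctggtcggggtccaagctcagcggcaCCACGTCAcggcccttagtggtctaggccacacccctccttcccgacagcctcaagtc
KDELR3, chr22:38468000-38468095, plus strand: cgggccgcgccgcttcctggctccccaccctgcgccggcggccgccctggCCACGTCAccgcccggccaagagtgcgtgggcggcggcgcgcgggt
STX5, chr11:62832052-62832117, minus strand: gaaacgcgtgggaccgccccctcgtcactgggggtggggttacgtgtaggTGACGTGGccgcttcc

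Levels are given as log2(signal + 16) after quantile normalization, and differences are A939572 minus DMSO on that scale, which understates the change of dim genes. Errors are SDs over the 4 lines, and adjusted p-values come from limma with the line as a block and Benjamini-Hochberg adjustment over all 12093 genes. Array medians of the deposited signal ran from 68.6 to 84.2 units. Each array was scaled to the same mean, so a gene's level is relative to the rest of the RNA, and fewer cells and less RNA per cell cannot be told apart. The renal markers PAX8, KRT8, KRT18 and CDH2 had mean levels from 11.65 to 13.55, EPCAM had 8.67 and PAX2 had 7.60. CDH16, a marker of differentiated tubule, lay at 6.17, under the filter of 6.41. Of 10 leukocyte, endothelial and fibroblast markers measured, 8 had means from 4.94 to 6.38, under that filter, PTPRC, CD3E and CD14 among them. The endothelial marker PECAM1 had 7.51 and the fibroblast marker COL1A1 had 8.39, and COL1A1 fell by 1.04 ± 0.36 on the log2 scale (limma adjusted p = 0.00318). A sign of RNA quality moved with treatment: the signal of ACTB at its 3′ end over that at its 5′ end ran from 2.12 to 2.33 on the DMSO arrays and from 3.02 to 4.22 on the treated ones, higher in 4 of 4 lines. The same ratio of GAPDH ran from 0.962 to 1.05 and from 1.01 to 1.11, a log2 difference of 0.08 ± 0.05 against 0.64 ± 0.25 for ACTB. The part of RNA quality in the values below was not tested.

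Most of the traffic genes rose with A939572. The list was drawn up with earlier results of these data known, so its shares describe the list and give no independent support. Of the 37, 24 were higher and 0 lower in limma, a share of 64.9% higher, against 14.7% of all genes tested that were higher, 15.9% that were lower and 30.6% called either way. At an unadjusted p under 0.05, 27 were higher and 0 lower. The members were brighter than the genes they are set against, with a median level of 11.70 against 9.44. With a stricter filter, at a mean level of 8.64, 25 of 36 members were higher in limma, against 20.9% of all genes. The median difference of the 37 was 0.46, against -0.03 over all genes tested, and 35 of the 37 means lay above 0. In 27 of them the value was higher in 4 of 4 lines, which held for 22.7% of all genes. Sizes were moderate: 5 members rose at least 2-fold, against 3.68% of all genes. In 8 members every treated array lay above every DMSO array, against 4.63% of all genes. With arrays centred on their medians 24 members were again higher, 23 of them shared, while 58.3% of all called genes were higher in place of 48%. Without CAKI2 or without A498 the count of members called higher was 15, without a variance trend 16, and without the line as a block 2, LMAN1 and GOLGA5. The share of all genes called higher fell as well, to 11.3%, 11%, 12% and 0.314% in that order.

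**Figure D1:**
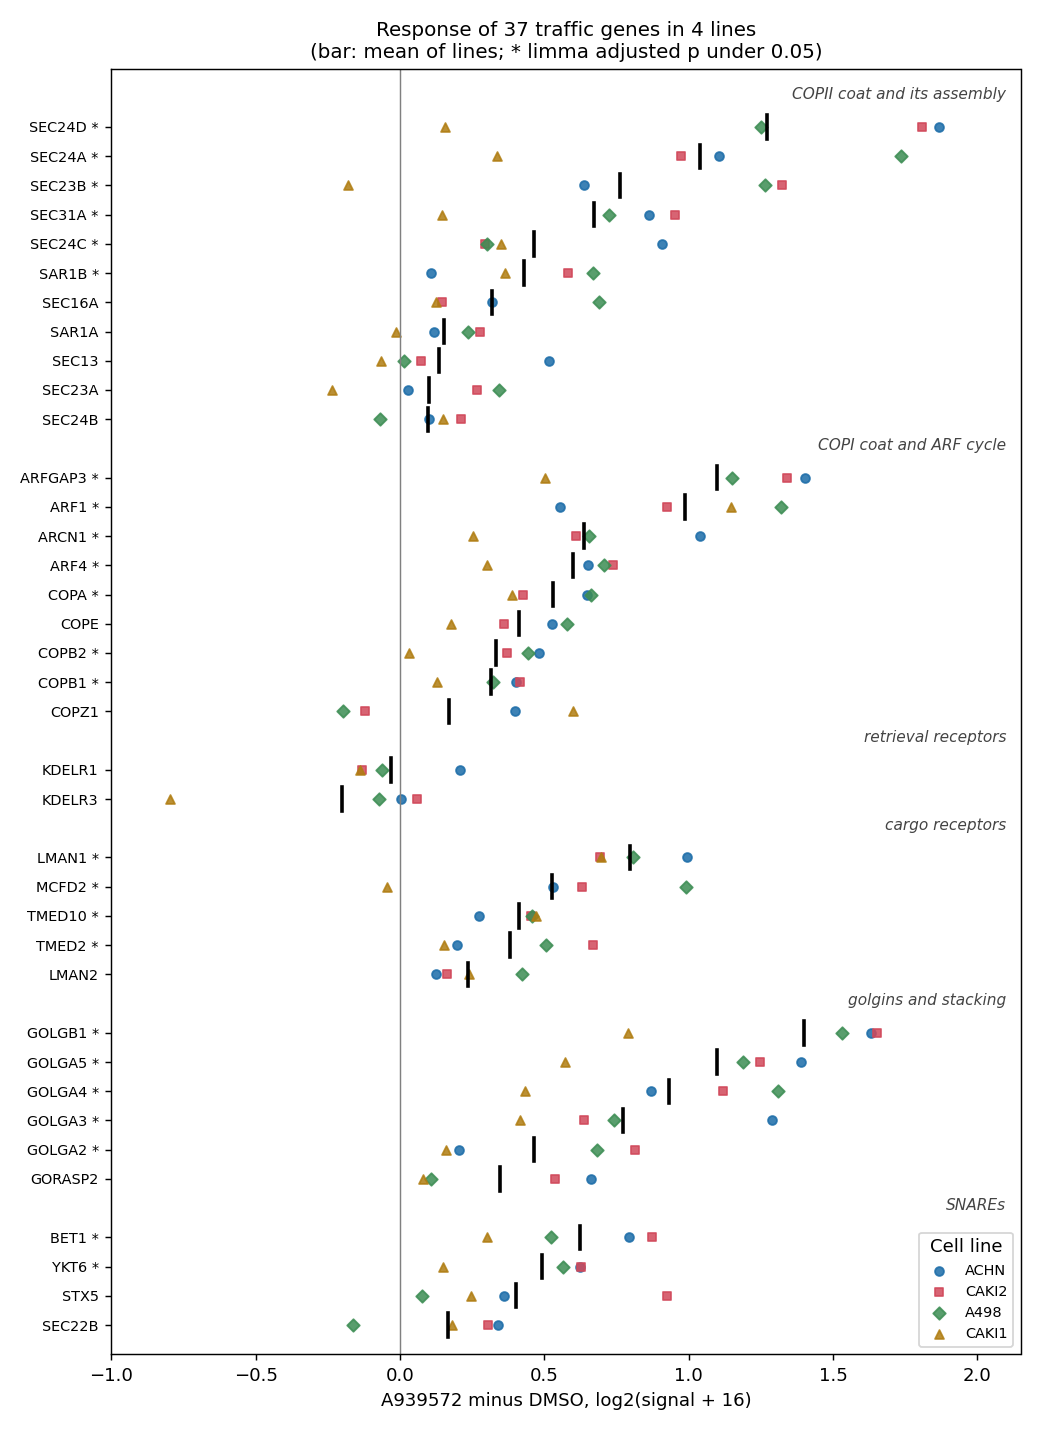
Difference between A939572 and DMSO for the 37 traffic genes, grouped by role, on the log2(signal + 16) scale. Each symbol is 1 cell line (1 treated array minus its DMSO array), the black bar is the mean of 4 lines, and an asterisk marks a limma adjusted p under 0.05. Most symbols lie right of 0, those of the KDEL receptors lie around it, and CAKI1 often lies leftmost.

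Of the 11 genes of the COPII coat and its assembly, 6 rose and 0 fell, with a median difference of 0.43. SEC24D, a cargo-binding subunit of the inner layer, had DMSO levels of 10.18 (ACHN), 10.67 (CAKI2), 11.28 (A498) and 10.58 (CAKI1), and treated levels of 12.05, 12.48, 12.53 and 10.74 in that order. The treated levels of ACHN, CAKI2 and A498 lay above all DMSO levels, and that of CAKI1 lay 0.16 above its control. The difference was 1.27 ± 0.79 or 2.41-fold (limma adjusted p = 0.00513). Its other probe sets had 1.72 ± 0.63 and 1.44 ± 0.73, with 0.89 and 0.72 in CAKI1. CAKI1 had the smallest difference in all 3 probe sets, and its value lay near 0 only in the brightest. SEC24A, a second cargo subunit whose promoter stretch is printed above, had 10.24, 11.14, 11.34 and 11.56 with DMSO in the same order of lines, and 11.35, 12.11, 13.08 and 11.89 with A939572. ACHN started lowest and A498 ended highest, and the groups overlapped. The difference was 1.04 ± 0.57 (adjusted p = 0.00414), with 1.29 ± 0.44 and 0.81 ± 0.39 in its other probe sets.

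SEC23B, which activates the GTPase of SAR1, rose by 0.76 ± 0.70 (limma adjusted p = 0.027), with 1.32 in CAKI2, 1.27 in A498, 0.64 in ACHN and -0.18 in CAKI1. Its second probe set was more even, at 0.81 ± 0.26, and was positive in 4 of 4 lines. The third was like the brightest, at 0.63 ± 0.55 with -0.16 in CAKI1. SEC31A, of the outer cage, rose by 0.67 ± 0.36 (adjusted p = 0.00706), SEC24C by 0.46 ± 0.30 (0.0377) and SAR1B, the GTPase form needed for lipoprotein export, by 0.43 ± 0.25 (0.0328). The SAR1B value was lower in its other probe sets above the level filter, at 0.35 ± 0.15, 0.23 ± 0.32 and 0.02 ± 0.30, and the last was positive in 1 of 4 lines. The scaffold gene SEC16A had 0.32 ± 0.26 (adjusted p = 0.0994), SAR1A 0.15 ± 0.13 (0.301) and SEC13, whose product also serves the nuclear pore, 0.13 ± 0.26 (0.44). SEC23A and SEC24B had 0.10 ± 0.26 (adjusted p = 0.554) and 0.10 ± 0.12 (0.548). The SEC24C call was lost when any line was left out (adjusted p = 0.0569 to 0.161), that of SEC23B without ACHN (0.057), CAKI2 (0.103) or A498 (0.114), and that of SAR1B without CAKI2 (0.108), A498 (0.131) or CAKI1 (0.0713).

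The responses of paralogues of the COPII coat were set side by side. That of SEC23B was above that of SEC23A in 4 of 4 lines, by 0.66 ± 0.44 on the log2 scale, although the gap in CAKI1 was 0.06 with both values under 0. SEC23A itself stayed near one level, at 12.79, 12.82, 12.63 and 12.80 with DMSO in ACHN, CAKI2, A498 and CAKI1 and at 12.81, 13.09, 12.97 and 12.57 with A939572. For SEC23B those levels were 12.94, 12.28, 12.75 and 12.52 with DMSO, and 13.57, 13.60, 14.01 and 12.34 with the drug, CAKI1 being the line that did not go up. SEC24B had 11.40, 11.41, 11.60 and 11.55 with DMSO and 11.50, 11.62, 11.53 and 11.70 with A939572, the flattest of the SEC24 genes. The response of SEC24B was below that of SEC24D in 4 of 4 lines, by 1.17 ± 0.80, although the gap in CAKI1 was 0.01, and the response of SEC24B minus that of SEC24A was -0.94 ± 0.67. SEC24C, at 10.06, 9.91, 10.63 and 10.50 with DMSO and 10.97, 10.21, 10.93 and 10.85 with A939572, had a response larger than that of SEC24B by 0.37 ± 0.32 in 4 of 4 lines, while its levels were lower. SEC24D and SEC24A differed in both directions across lines, by 0.23 ± 0.67. SAR1A had 12.61, 11.51, 12.24 and 12.44 with DMSO and 12.73, 11.79, 12.48 and 12.43 with A939572. SAR1B had 10.98, 11.04, 10.99 and 11.65 with DMSO and 11.09, 11.62, 11.66 and 12.02 with the drug, and its response exceeded that of SAR1A by 0.28 ± 0.20 in 3 of 4 lines. None of 9 such differences between paralogues passed an exact 2-sided sign-flip test over the 4 lines, which cannot go below p = 0.125. After adjustment over the 9 pairs the lowest value was 0.281.

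**Figure D2:**
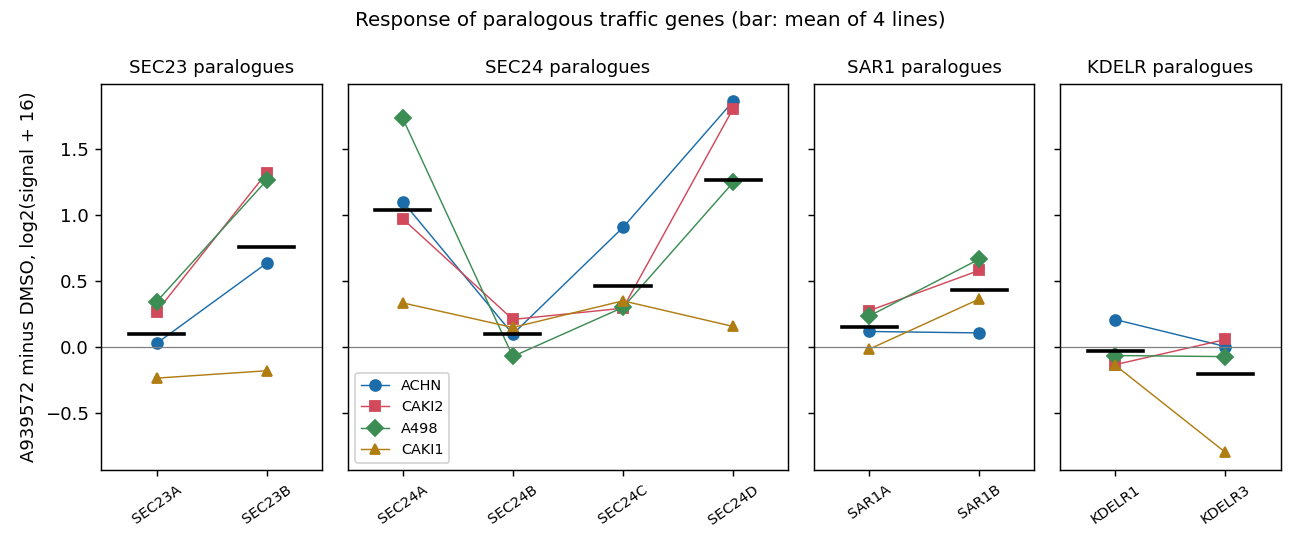
Response of paralogous genes, A939572 minus DMSO on the log2(signal + 16) scale, for the SEC23, SEC24, SAR1 and KDELR families. Symbols joined by thin lines are cell lines and black bars are means of 4 lines. SEC24A and SEC24D stand above SEC24B in ACHN, CAKI2 and A498, and the 4 values of CAKI1 lie close together in the SEC24 family.

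Of the 9 genes of the COPI coat and the ARF cycle, 7 rose and 0 fell, with a median of 0.53. ARFGAP3, which triggers GTP hydrolysis on ARF1 and so coat release, had 11.30, 11.89, 11.86 and 11.93 with DMSO in ACHN, CAKI2, A498 and CAKI1, and 12.71, 13.23, 13.01 and 12.43 with A939572. All treated levels lay above all controls, and the difference was 1.10 ± 0.41 or 2.14-fold (limma adjusted p = 0.00105). ARF1, the GTPase that recruits the coat, had 8.42, 8.73, 8.58 and 8.38 with DMSO and 8.97, 9.66, 9.90 and 9.53 with A939572, again without overlap. Its difference was 0.99 ± 0.33 (adjusted p = 0.00245), read from a single probe set, since others given to ARF1 also carry the name of a microRNA gene. ARF4, a related GTPase, rose by 0.60 ± 0.20 (adjusted p = 0.00199) and by 0.68 ± 0.15 in its second probe set.

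Of the 6 coat subunits 4 rose. ARCN1, the delta subunit, led them with 0.64 ± 0.32 (limma adjusted p = 0.00888) and did not overlap between the groups. COPA, the alpha subunit, had 0.53 ± 0.14 (adjusted p = 0.00778), COPB2, the beta prime subunit, 0.33 ± 0.21 (0.0404) and COPB1, the beta subunit, 0.32 ± 0.13 (0.0233). The COPA value is that of its brightest probe set. Its dimmer ones above the level filter, at mean levels of 7.43 and 6.60, did not pass a limma fit over probe sets. The brighter of these had 0.54 ± 0.64 (adjusted p = 0.155), with 1.47 in CAKI1 and -0.001 in ACHN. The other had 0.03 ± 0.22 (adjusted p = 0.941). A COPA probe set under the filter had 0.97 ± 0.76. COPE, the epsilon subunit, had 0.41 ± 0.18, higher in 4 of 4 lines, and missed the threshold (adjusted p = 0.0544), which it passed with arrays centred on their medians (0.036). COPZ1, the zeta subunit, had 0.17 ± 0.39 (adjusted p = 0.44), with 0.60 in CAKI1 and 0.40 in ACHN but -0.12 in CAKI2 and -0.20 in A498. Its second probe set, about as bright, gave another order of lines. It had -0.05 ± 0.29, with -0.17 in CAKI1 and 0.33 in CAKI2. COPB1 and COPB2 lost their calls without ACHN (adjusted p = 0.0855 and 0.141), CAKI2 (0.0828 and 0.108) or A498 (0.0664 and 0.131), and COPB2 also after median centring (0.0509).

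The KDEL receptors catch escaped chaperones of the endoplasmic reticulum and return them through COPI vesicles. Neither of the 2 measured here passed the test. KDELR1 had 11.48, 12.44, 12.33 and 11.97 with DMSO in ACHN, CAKI2, A498 and CAKI1 and 11.69, 12.30, 12.27 and 11.83 with A939572, a difference of -0.03 ± 0.16 (limma adjusted p = 0.86) whose sign changed after median centring and without CAKI2 or CAKI1. KDELR3 had 11.02, 12.89, 12.34 and 12.39 with DMSO and 11.03, 12.94, 12.26 and 11.59 with A939572, a difference of -0.20 ± 0.40 (adjusted p = 0.35). In this brightest probe set ACHN, CAKI2 and A498 stayed within 0.07 of their controls and CAKI1 lay 0.80 below its own. The second probe set gave -0.74 in CAKI1 and -0.24 in A498, with 0.15 in ACHN and 0.00 in CAKI2. The third and dimmest was lower in every line, with -0.29, -0.31, -0.18 and -0.50 in the order above. KDELR3 has the element TGACGTGG in its promoter, printed above, and is the only one of the 37 members with a line at least 1.5-fold lower.

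Of 5 cargo receptors 4 rose and 0 fell, with a median of 0.41. LMAN1, the lectin that carries coagulation factors V and VIII out of the endoplasmic reticulum, had 13.26, 13.37, 13.25 and 13.22 with DMSO in ACHN, CAKI2, A498 and CAKI1 and 14.25, 14.06, 14.06 and 13.91 with A939572. The lines were nearly alike before and after, and the difference of 0.80 ± 0.14 (limma adjusted p = 0.000547) came with 0.76 ± 0.20 and 0.69 ± 0.46 in its other probe sets. MCFD2, the partner of LMAN1, rose by 0.53 ± 0.43 (adjusted p = 0.0264) with -0.04 in CAKI1 and 0.99 in A498. The p24 family genes TMED10 and TMED2, whose products sort lipid-anchored proteins, rose by 0.41 ± 0.09 (adjusted p = 0.0101) and 0.38 ± 0.25 (0.0197). The second TMED10 probe set gave 0.64 ± 0.15, and the third TMED2 probe set 0.22 ± 0.35. LMAN2, another lectin, had 0.24 ± 0.13 (adjusted p = 0.146). MCFD2 lost its call without ACHN (adjusted p = 0.0701), CAKI2 (0.0791) or A498 (0.112), and TMED2 without CAKI2 (0.083) or A498 (0.0723).

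The golgins and the stacking protein had the highest median of the groups, 0.85, and 5 of 6 rose with 0 lower. GOLGB1, which encodes giantin, had 10.01, 9.67, 10.92 and 11.07 with DMSO in ACHN, CAKI2, A498 and CAKI1 and 11.64, 11.32, 12.45 and 11.86 with A939572. The groups did not overlap, and the difference of 1.40 ± 0.41 or 2.64-fold (limma adjusted p = 0.000534) was the largest of the 37 members. Its dimmer second probe set showed no such rise, with -0.01 ± 0.56, so that the value rests on 1 probe set. GOLGA5, a golgin bound to the membrane that captures vesicles, had 10.95, 11.15, 11.02 and 11.49 with DMSO and 12.34, 12.39, 12.20 and 12.06 with A939572. CAKI1 was the highest control and the lowest treated line, the groups did not overlap, and the difference was 1.10 ± 0.36 (adjusted p = 0.000902). GOLGA4, a golgin of the trans side, rose by 0.93 ± 0.38 (adjusted p = 0.00178) with 0.89 ± 0.43 in its second probe set, and GOLGA3 by 0.77 ± 0.37 (0.00581).

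GOLGA2, the cis-Golgi tether that binds the product of USO1, rose by 0.47 ± 0.33 (limma adjusted p = 0.0454), while a dimmer probe set gave 1.45 ± 0.38. GORASP2, which links cisternae into stacks, had 0.35 ± 0.30 (adjusted p = 0.0631) in its brightest probe set. Its next 2 probe sets gave 0.60 ± 0.20 and 0.58 ± 0.15, higher in 4 of 4 lines, with adjusted p = 0.00434 and 0.00572 in a limma fit over 22703 probe sets. The GOLGA2 call was lost without ACHN (adjusted p = 0.0542), CAKI2 (0.17) or A498 (0.163).

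Among 4 SNAREs of this step, 2 rose and 0 fell, with a median of 0.45. BET1 rose by 0.62 ± 0.26 (limma adjusted p = 0.00578) and YKT6, a SNARE held by a lipid anchor, by 0.49 ± 0.23 (0.0271). STX5, the syntaxin of the complex and another gene whose promoter stretch is printed above, was the dimmest member at a mean level of 6.54 and had 0.40 ± 0.37 (adjusted p = 0.325). SEC22B had 0.17 ± 0.23 (adjusted p = 0.362), and its probe sets shared with pseudogenes were not used. YKT6 lost its call without ACHN (adjusted p = 0.0957), CAKI2 (0.0862) or A498 (0.0919).

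**Figure D3:**
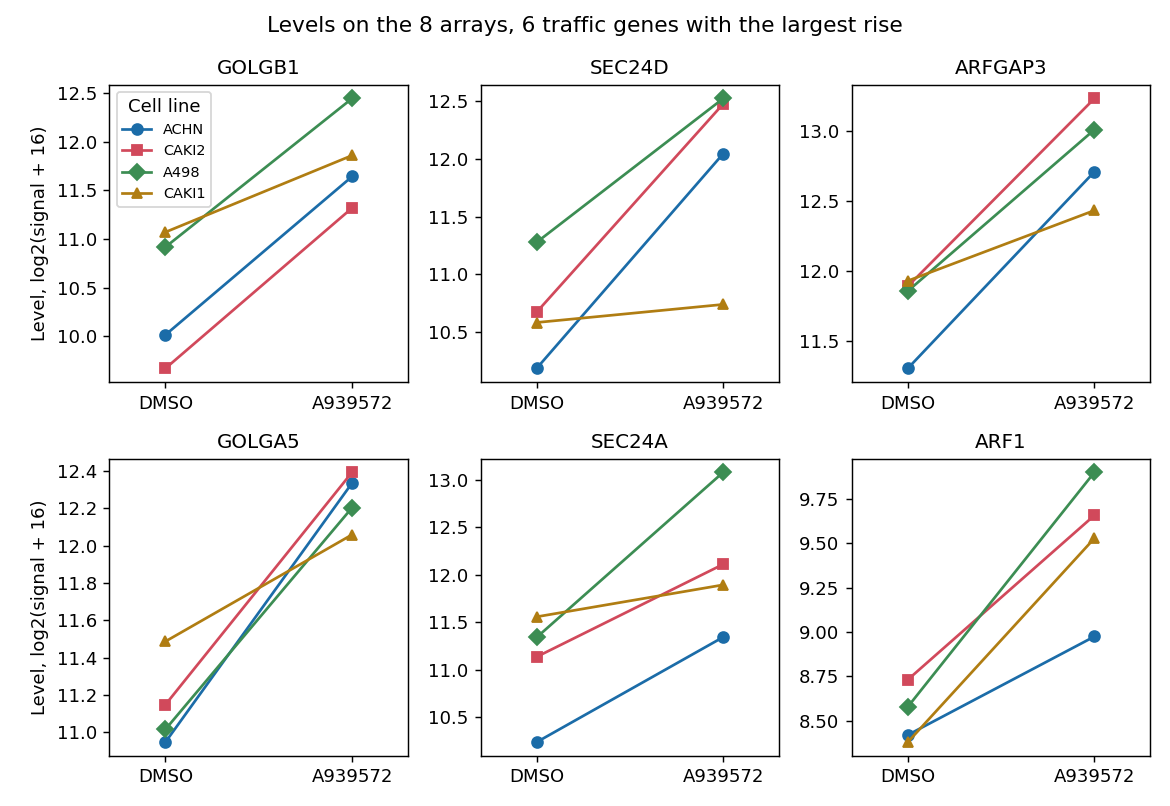
Levels on the 8 arrays, as log2(signal + 16), of the 6 traffic genes with the largest rise. Each line joins the DMSO and A939572 arrays of 1 cell line. All 24 lines slope upward, and that of CAKI1 is the flattest in each panel but that of ARF1, where ACHN is.

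CAKI1 had the smallest response in most members. The median difference over the 37 was 0.18 in CAKI1, against 0.53 in ACHN, 0.58 in A498 and 0.61 in CAKI2, while the medians over all genes tested lay between -0.04 and -0.01 in the 4 lines. The CAKI1 median depended on the probe sets used: averaging all probe sets of a gene gave 0.35, against 0.51 to 0.61 in the other lines, and CAKI1 was then smallest in 21 of 37. At least 1.5-fold higher were 4 members in CAKI1, 17 in ACHN, 18 in A498 and 19 in CAKI2, against 13.2%, 18.6%, 16.1% and 15.4% of all genes. At least 1.5-fold lower were 0 members in ACHN, CAKI2 and A498 and 1 in CAKI1, against 19.1%, 17.2%, 17.2% and 16.7%. CAKI1 held the smallest of the 4 differences in 27 of 37 members, as it did for 26.4% of all genes tested. Among genes called higher it did so in 19 of 24 members and in 39.4% of all such genes. COPZ1 and TMED10 were the 2 members with their largest difference in CAKI1. Their second probe sets gave CAKI1 -0.17 and 0.53, under the 0.33 and 0.85 of CAKI2. With 1 array against 1 in a line there is no test of this difference between lines. Without CAKI1 the members' median was 0.53, with 22 of 36 tested called higher, against 12.4% of all genes.

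**Figure D4:**
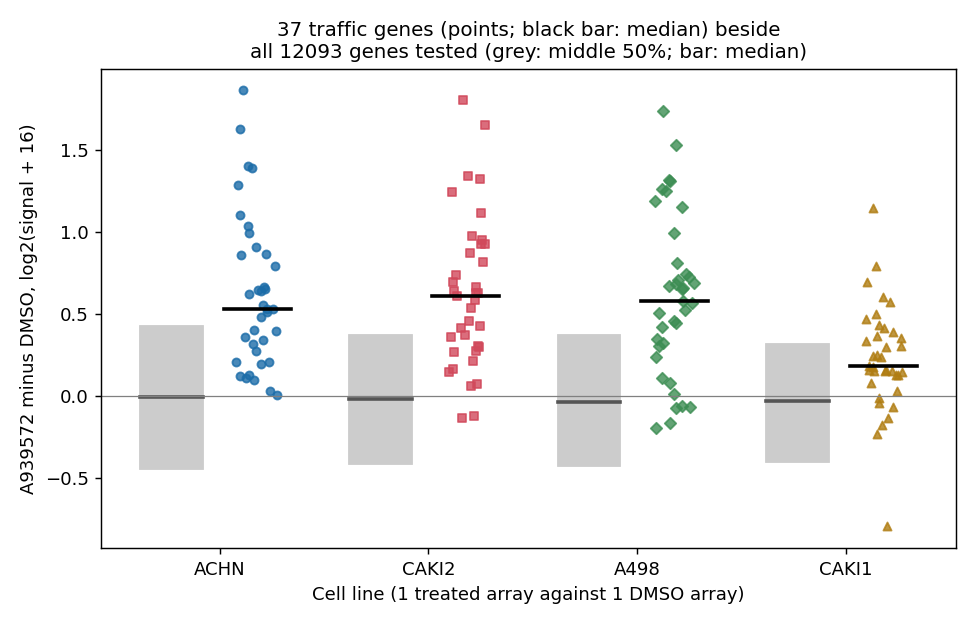
Difference between A939572 and DMSO in each cell line on the log2(signal + 16) scale. Points are the 37 traffic genes with their median as a black bar, and the grey box is the middle 50% of all 12093 genes tested with its median. The median of the traffic genes is 0.18 in CAKI1 and lies between 0.53 and 0.61 in the other lines.

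Other probe sets of the same genes served as a check. A second probe set above the level filter was present for 24 members, and 20 of them had the sign of the brightest. The median difference was 0.46 in the second probe sets and 0.48 in the brightest of the same genes. Of 17 members called higher that had such a second probe set, 16 were positive in it and 12 passed the limma fit over probe sets. In that fit 45 of the 78 member probe sets above the filter were higher and 0 lower, against 13.5% and 13.9% of all probe sets. GOLGB1 was the member called higher whose second probe set did not go up. With the mean of all probe sets of a gene, GOLGB1 had 0.70 and kept its call, while GOLGA3 had 0.33 (limma adjusted p = 0.0746) and SAR1B 0.24 (0.2). COPB2 (adjusted p = 0.344), TMED2 (0.0575) and YKT6 (0.055) also lost their calls there, COPE with 0.76 (0.0121) and GORASP2 with 0.51 (0.0124) gained one, and TMED10 and GOLGA2 had 0.73 and 0.78. That mean takes in probe sets under the level filter, such as the second ones of COPE (mean level 5.58) and COPB2 (4.95).

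**Figure D5:**
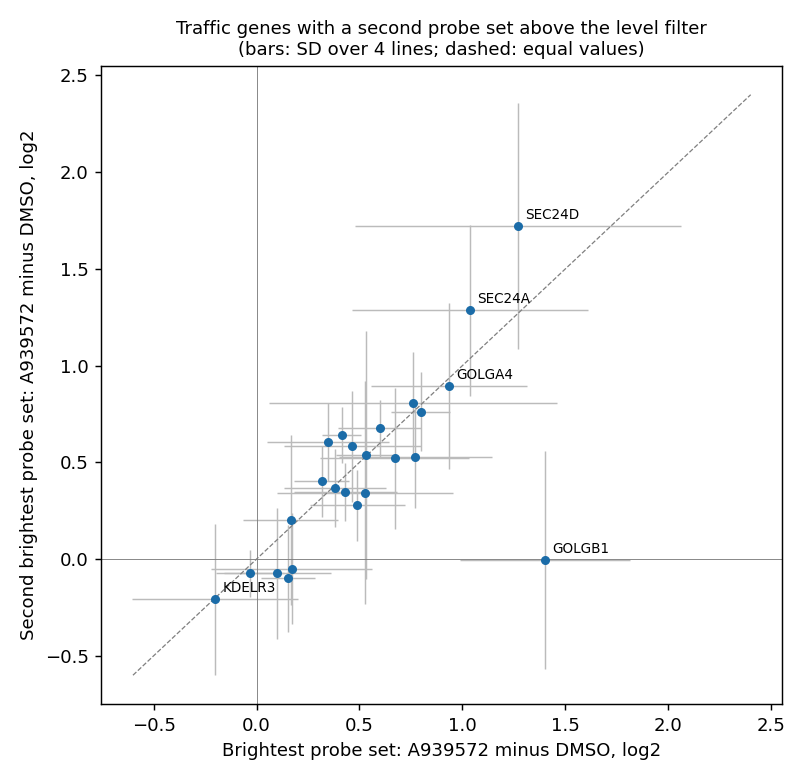
Difference between A939572 and DMSO in the brightest and in the second brightest probe set of 24 traffic genes, on the log2 scale, with SDs over 4 lines. Points near the dashed line have equal values in both, and GOLGB1 lies far below it, at 1.40 against -0.01.

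The lines also differed in the level of these genes, whatever the treatment. The limma F test of line passed for 22 of 37 members (59.5%), a share near that of all genes tested, 61%. Line means of a member spanned 0.11 to 1.89, with a median span of 0.70 against 0.95 over all genes, and the span exceeded the drug difference in 25 members. KDELR3 spanned most in the same limma fit, from ACHN to CAKI2 (adjusted p = 0.000539), followed by GOLGA2 with 1.77 and SEC16A with 1.61, both highest in A498 and lowest in CAKI1. ARCN1 spanned least (adjusted p = 0.961), then GOLGA5 with 0.16, SEC24B with 0.18 and LMAN1 with 0.19, and all of these but SEC24B rose with the drug. A498 was the highest line for 19 members and the lowest for 3, and ACHN was the lowest for 14. The count of members past this test was 13 without A498 and also 13 with no variance trend. The share of all genes past it in those fits is not given here.

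Other genes of the same traffic steps were taken from a list of 80 that holds no member, of which 77 were tested. That list, too, was drawn up with earlier results of these data known. Of these 29 rose (37.7%) and 6 fell (7.79%), with a median of 0.23. Over all genes tested, 14.7% were higher and 15.9% lower, so the share that fell was below that of all genes. COG3, a subunit of a Golgi tethering complex, rose by 1.47 ± 0.22 (limma adjusted p = 0.000267), MIA3, which helps load collagen at exit sites, by 1.38 ± 0.08 (0.000274), PREB, the exchange factor that activates SAR1, by 1.26 ± 0.43 (0.000951) and GCC1, a golgin, by 1.07 ± 0.27 (0.000777). ERGIC1 fell by 0.76 ± 0.38, SEC16B by 0.75 ± 0.43, ARF3 by 0.72 ± 0.14 and TMED4 by 0.48 ± 0.17. Averaging all probe sets of a gene gave GCC1 0.61 (adjusted p = 0.0727), ERGIC1 -0.41 (0.108) and ARF3 -0.44. SEC16B lost its call without ACHN (adjusted p = 0.137) or CAKI1 (0.0779), and TMED4 without CAKI2 (0.0522) or CAKI1 (0.0701), after median centring (0.0637) and under that averaging (0.0918). Without ACHN 17 of the 77 were higher, without CAKI2 or A498 19, and without CAKI2 or CAKI1 3 were lower.

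Transcription factors known to act on secretory genes were measured on the same arrays. XBP1 rose by 1.09 ± 0.47 (limma adjusted p = 0.00173), TFE3, a factor of the Golgi stress response, by 0.95 ± 0.36 (0.00185), CREB3L2, which drives COPII genes in secretory cells, by 0.92 ± 0.40 (0.00225), ATF4 by 0.84 ± 0.15 (0.000383) and CREB3 by 0.80 ± 0.21 (0.00224). DDIT3 rose by 2.98 ± 0.66 (adjusted p = 9.17e-05), and ATF6 had 0.14 ± 0.22 (0.466). CREB3L1 and GLI1 lay under the level filter. Averaged over probe sets, XBP1 had 0.90 (adjusted p = 0.0681) and CREB3L2 0.49. These are transcript levels, which give neither the splicing of XBP1 nor the cleavage of ATF6. Read against the promoter search, 6 of the 21 members called higher that had a window carried TGACGTGG and 9 carried ACGTGGC. Of the 13 tested members not called, 4 and 7 did.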

How the data were processed

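The authors deposited 1 intensity signal per probe set on a linear scale. Total RNA was made into biotin-labelled cRNA, per the labels' protocols, while the program behind the signals is not given in the sources used here. All deposited intensity values had been scaled, since their mean after trimming 2% at each end was 500.1 on all 8 arrays. Signals were taken as log2(signal + 16) and quantile normalized without 62 control probe sets. Of 41091 probe sets with 1 gene symbol, the one with the highest mean over 8 arrays stood for its gene, and genes with a mean of at least 6.41, the median over probe sets, were tested with limma 3.58.1 in R 4.3.3 (lmFit, eBayes with a variance trend, 2-sided, adjusted p under 0.05), the line being a block. Arrays of a line correlated at 0.818 to 0.864 in their deviations from the group means, and arrays of different lines at no more than -0.03. P-values set a gene's mean difference against the spread of its differences over these lines, moderated by limma towards the spread of other genes. For SEC23B and MCFD2, with SDs of 0.70 and 0.43, the moderated SEs were 0.22 and 0.15. Those are smaller than the SEs that their own 4 differences would give. The fit was tested on simulated data in which 200 of 12093 genes changed. It recovered 12% of changes of 1.5-fold, 48% of 2-fold and 76% of 4-fold, and 2 of its 94 calls were false. Far more genes were called in the deposited data, 3706, so recovery there may differ. A gene that did not pass is not shown to be unchanged. Precision is limited by the small number of arrays, and the median SE of a difference was 0.17.

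The members and lists were chosen with earlier results of these data known. Values on every array are given for the 6 called members with the largest change and for paralogues, with LMAN1 added after its values were seen. Of the other traffic genes, up to 4 with the largest change each way are named. Alternatives were other normalizations, offsets, filters, probe set choices and variance models, no line block, and leaving out each line.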

Additional observations from a re-analysis of the deposited data

Results flagged for a closer look

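In 8 of 111 groups of 4 values, taken over the members' DMSO levels, treated levels and differences, 1 line stood apart from the other 3 by Dixon's criterion, and chance gives about 1 in 20. All values are on the log2 scale. CAKI1 had a difference of -0.80 for KDELR3, where the other lines had -0.07 to 0.06, one of 0.79 for GOLGB1 against 1.53 to 1.65, and one of 0.15 for YKT6 against 0.56 to 0.63. These are values of the brightest probe sets, and the dimmest one of KDELR3 was lower in every line. CAKI1 also had the highest DMSO level of SAR1B, 11.65 against 10.98 to 11.04. ACHN had a difference of 0.91 for SEC24C, against 0.30 to 0.35, and one of 0.27 for TMED10, against 0.45 to 0.47. The DMSO level of ARFGAP3 was 11.30 in ACHN and 11.86 to 11.93 in the others. The treated level of SEC24C was 10.21 in CAKI2 and 10.85 to 10.97 in the others.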

How the results depend on the processing

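Of 509 values of single members under the alternatives, 428 kept their direction and side of the threshold, 73 lost the threshold, 4 gained it and 4 changed sign. KDELR1, which was not called in any of these, had 0.054 after median centring, and with a line left out it ran from -0.1112 (without ACHN) to 0.0043 (without CAKI1), with 0.0028 without CAKI2. When probe sets whose names mark possible cross-matches were dropped, GOLGB1 had -0.0066 (adjusted p = 0.987), and 19 other traffic genes were higher. Without the line as a replicate block limma called 2 members higher, LMAN1 and GOLGA5, and 0 of the other traffic genes higher or lower. In that fit 0.314% of all genes were higher. In the paired fits, 13 of the 24 members called higher kept that call in every setting in which they were tested (SEC24A, SEC24D, SEC31A, COPA, ARCN1, ARF1, ARF4, ARFGAP3, LMAN1, TMED10, GOLGA4, GOLGA5 and BET1). ARCN1, ARF1, ARFGAP3, GOLGA5 and BET1 have 1 probe set each, so averaging over probe sets could not change their values. ARCN1, SEC31A and ARF4 had no probe set left when possible cross-matches were dropped. COPA kept its call with the mean of all its probe sets (limma adjusted p = 0.0257), but its dimmer ones above the level filter did not pass singly. With a line left out, 15 to 22 members were higher, 13 to 20 differed between lines, and 17 to 27 other traffic genes were higher and 3 to 4 lower. Of all genes, 10.3% to 12.4% were higher in those fits. Members lower stayed at 0 in each setting. With no variance trend 13 members differed between lines. The share of all genes that differed between lines is not given for these fits. With the mean of all probe sets 16 other traffic genes were higher and 2 lower, and after median centring 3 were lower. The number of members with the smallest difference in CAKI1, a count chosen, with its settings, after seeing the data, ran from 21 of 37 (56.8%) with the mean of all probe sets to 27 of 37 (73%) over other normalizations, offsets and probe set choices, being 18 of 30 without possible cross-matches. The median in CAKI1 ran from 0.18 to 0.35 over these settings.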
